A study of Mus musculus with 5 samples.

Results

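The ubiquitin-specific proteases (USPs) and 9 related deubiquitinases were examined in ribosome-bound RNA from mouse midbrain dopaminergic (DAergic) neurons. The members were the protein-coding genes whose symbol is Usp followed by a digit, leaving out the Y-linked copy *Usp9y*. To these were added *Otub1*, *Otub2*, *Cyld*, *Bap1*, *Uchl3*, *Uchl5*, *Atxn3*, *Josd1* and *Josd2*. This gave 64 genes, 55 by symbol and 9 by name, of 53700 in the count table. The group was proposed because *Usp33* was among the largest falls in Esrrg Flox libraries, so the list was in part chosen by its Flox over WT fold change, and the change of *Usp33* is given below as a description without a p-value. One gene taken by its symbol, *Usp6nl*, encodes a GTPase-activating protein for Rab GTPases and is no protease.

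The study asked which transcripts depend on the nuclear receptor ERRγ, the product of *Esrrg*, in these neurons. RNA was purified by BAC-TRAP, in which an EGFP-tagged ribosomal protein (L10a) is switched on by Cre recombinase and tagged ribosomes are pulled down with their mRNA. The 3 Esrrg WT libraries (replicates 2, 3 and 4) came from L10a;Esrrg WT mice, and the 2 Esrrg Flox libraries (replicates 2 and 4) from mice with the same L10a transgene and floxed *Esrrg* alleles. All mice were C57BL/6 (C57BL/6J in the study's methods), were 4 months old and had received AAV:THCre in the midbrain, so controls also carried virus, Cre and tag. Midbrain was taken 1 month after the injection, when Cre had removed exon 2 of *Esrrg* in Flox mice. Each library is 1 pool of several mice, and both tag and deletion reach the cells in which the virus drives Cre from a tyrosine hydroxylase promoter, not each DAergic neuron. The p-values below therefore measure the spread between pools.

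Libraries held 20635855 to 23105058 assigned counts, so 0 counts allow a level of up to 0.130 to 0.145 CPM (counts scaled to a common library total), which corresponds to 3 counts. *Esrrg* itself had 1763, 1643 and 1726 normalized counts in WT and 1504 and 1170.1 in Flox, a log2 fold change of -0.35 (SE 0.13, adjusted p = 0.0753). Both Flox values were below all WT values, and because the count runs over the whole gene it does not measure exon 2. All 11 DAergic markers were detected in every library, with summed normalized counts between 51078 and 60871 in WT and between 52075 and 54810.4 in Flox. Among them, *Ret* fell (log2 fold change -0.40, adjusted p = 0.00291 with DESeq2 and 0.0536 with edgeR). Markers of other cells were also present. The 9 astrocyte markers summed to between 74828 and 109197 in WT and between 78872 and 102553 in Flox, the 8 oligodendrocyte markers to between 106757 and 157562 in WT and between 121872 and 145195 in Flox and the 6 GABAergic markers to between 32115 and 32519 in WT and between 29546 and 31600.3 in Flox. Among the GABAergic markers *Gad2* fell and *Sst* rose with DESeq2 (log2 fold change -0.35 and 0.54), and 0 passed with edgeR. Of the astrocyte, oligodendrocyte and 3 glutamatergic markers 0 passed (DESeq2 and edgeR, 2 at an unadjusted p under 0.05). The glutamatergic markers summed to 7365, 7176 and 4902 in WT and 6183 and 4897 in Flox. Of these, *Slc17a7* had 2974, 2772 and 390 in WT and 2303 and 800 in Flox, so it was lowest in replicate 4 of each group. The part of this in the members' values was not tested. The 12 microglial markers summed to 2441, 2931 and 1545 in WT and 5211 and 11162 in Flox. Of them, 10 rose with DESeq2 and 6 with edgeR. The 8 endothelial markers summed to 177, 286 and 138 in WT and 316 and 792 in Flox, and 3 rose with DESeq2 and 0 with edgeR. For 1 of these 3, *Cldn5*, the groups overlapped (88.7 in WT replicate 3 and 88.4 in Flox replicate 2). No marker in these lists was at 0 in any library. Fewer cells of a type and less RNA per cell cannot be told apart in such libraries.

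Ubiquitin is a small protein that is joined to other proteins by a chain of E1, E2 and E3 enzymes, often as a signal for degradation by the proteasome. Deubiquitinases reverse this. They cut ubiquitin from substrates, edit or recycle ubiquitin chains, and so set how long a protein lasts or where it is sorted. USPs are the largest family of these enzymes and are cysteine proteases, as are the smaller OTU, UCH and Josephin families. In DAergic neurons deubiquitinases are studied for their action on mitophagy, the removal of damaged mitochondria, and on α-synuclein.

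Most members were expressed. Of the 64 genes, 58 had at least 1 count in at least 1 library, and 56 reached 10 counts in 2 or more libraries. The 6 without any count were the 5 genes of the *Usp17l* cluster (*Usp17la* to *Usp17le*) and the testis gene *Usp26*. *Usp44* had at most 2 counts and *Usp50* at most 7, and neither received an adjusted p. These genes were named because of their low values. Together the members took 0.346%, 0.348% and 0.341% of assigned counts in WT replicates 2, 3 and 4 and 0.332% and 0.318% in Flox replicates 2 and 4. Both Flox shares were thus below the WT shares, by a small margin.

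Levels were compared between genes as normalized counts per kilobase (kb) of exon. *Otub1*, which cleaves Lys48-linked chains and also holds E2 enzymes inactive, had the highest level in WT at 4365 ± 299 (SD, n = 3). *Usp5*, which takes apart unanchored ubiquitin chains, and *Usp22*, the deubiquitinase of the SAGA coactivator, followed at 1136 ± 45.2 and 1127 ± 26.1 per kb, and these levels overlapped. Next came *Bap1*, a nuclear enzyme that removes ubiquitin from histone H2A, at 624 ± 3.73 and *Usp11* at 619 ± 28.6, also overlapping. The proteasome-bound *Uchl5* had 518 ± 30.9 per kb. *Usp18*, which removes the ubiquitin-like modifier ISG15, had 481 ± 69.9 and *Josd2* 473 ± 92.1. The levels of *Uchl5*, *Usp18* and *Josd2* overlapped as well. *Usp33* stood at place 46 in this order with 36.4 ± 7.37 per kb and *Usp9x* at place 50 with 25.1 ± 3.57 per kb.

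**Figure D1:**
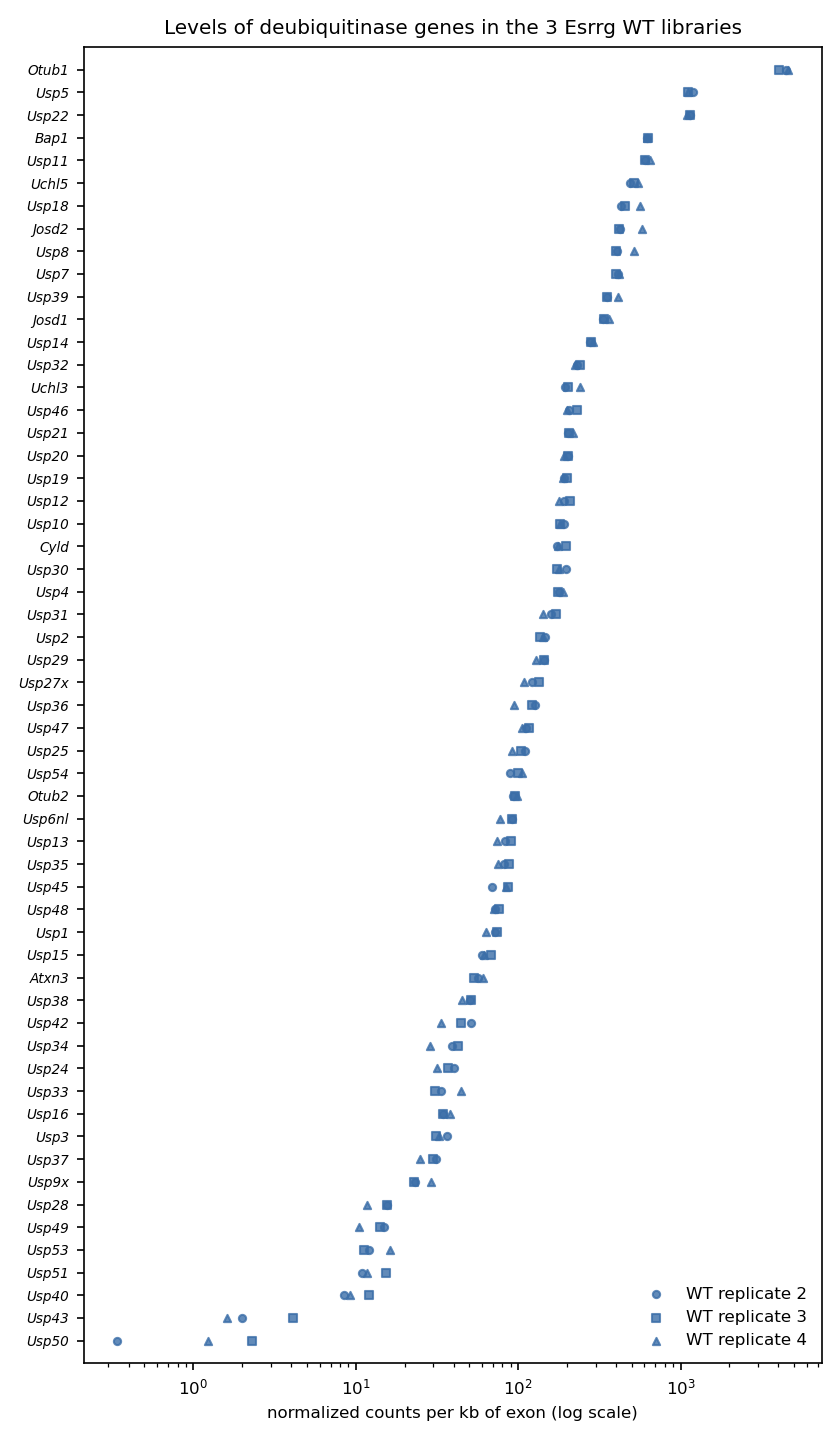
Levels of the members with a count in each of the 3 Esrrg WT libraries (circles, replicate 2; squares, replicate 3; triangles, replicate 4), as normalized counts per kb of exon on a log scale. *Otub1* stands at 4365 per kb on average, *Usp33* at 36.4 and *Usp9x* at 25.1.

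Apart from *Usp33*, whose fall had chosen the group, 2 of the other 55 tested members were lower in Flox at an adjusted p under 0.05, namely *Usp9x* and *Bap1*, and 0 were higher (DESeq2, 12 at an unadjusted p under 0.05). Of all 15724 genes tested, 4.05% were called lower and 4.2% higher. With edgeR, 0 of these 55 members were called in either direction (12 at an unadjusted p under 0.05), beside 0.535% of all genes lower and 0.884% higher. With a fold change of at least 1.5 as well, 1 of them was lower with DESeq2 (*Usp9x*) and 0 were higher, beside 1.41% and 1.77% of all genes. These shares are given as a background, and since the group was chosen on this contrast nothing is read from them. Without Flox replicate 4, 0 of the 55 were called, and without Flox replicate 2, 4 were called, 1 of them higher (*Usp34*). The call with a 1.5-fold change was lost without WT replicate 4 and without Flox replicate 4. The values nearest the threshold were those of *Bap1* inside it (adjusted p = 0.0148) and *Usp34* outside it (adjusted p = 0.073).

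The median log2 fold change of the 56 members was -0.07, beside -0.01 for all genes tested, and 34 members (60.7%) had a negative value, beside 50.9% of all genes. Both Flox libraries lay below all WT libraries for 15 members, an arrangement found in 22.5% of all genes. For 8 members both Flox libraries lay above all WT libraries, beside 19.9% of all genes. Leaving out *Usp33*, 33 of 55 values were negative and 14 members lay below WT. Without WT replicate 3 the 8 became 13. The 15 were *Usp33*, *Usp9x*, *Otub2*, *Usp21*, *Bap1*, *Usp39*, *Usp31*, *Usp54*, *Josd1*, *Usp25*, *Usp32*, *Usp8*, *Usp7*, *Usp10* and *Usp46*. The 8 were *Usp11*, *Usp5*, *Usp20*, *Usp14*, *Usp36*, *Usp2*, *Usp34* and *Usp51*. Across the members, which share the same libraries, the log2 fold change correlated with exon length at Pearson's r = -0.07 and Spearman's rho = 0.04 (n = 56 genes). The correlations were r = -0.01 and rho = -0.03 with the mean normalized count, and r = -0.03 and rho = -0.15 with the WT level per kb.

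**Figure D2:**
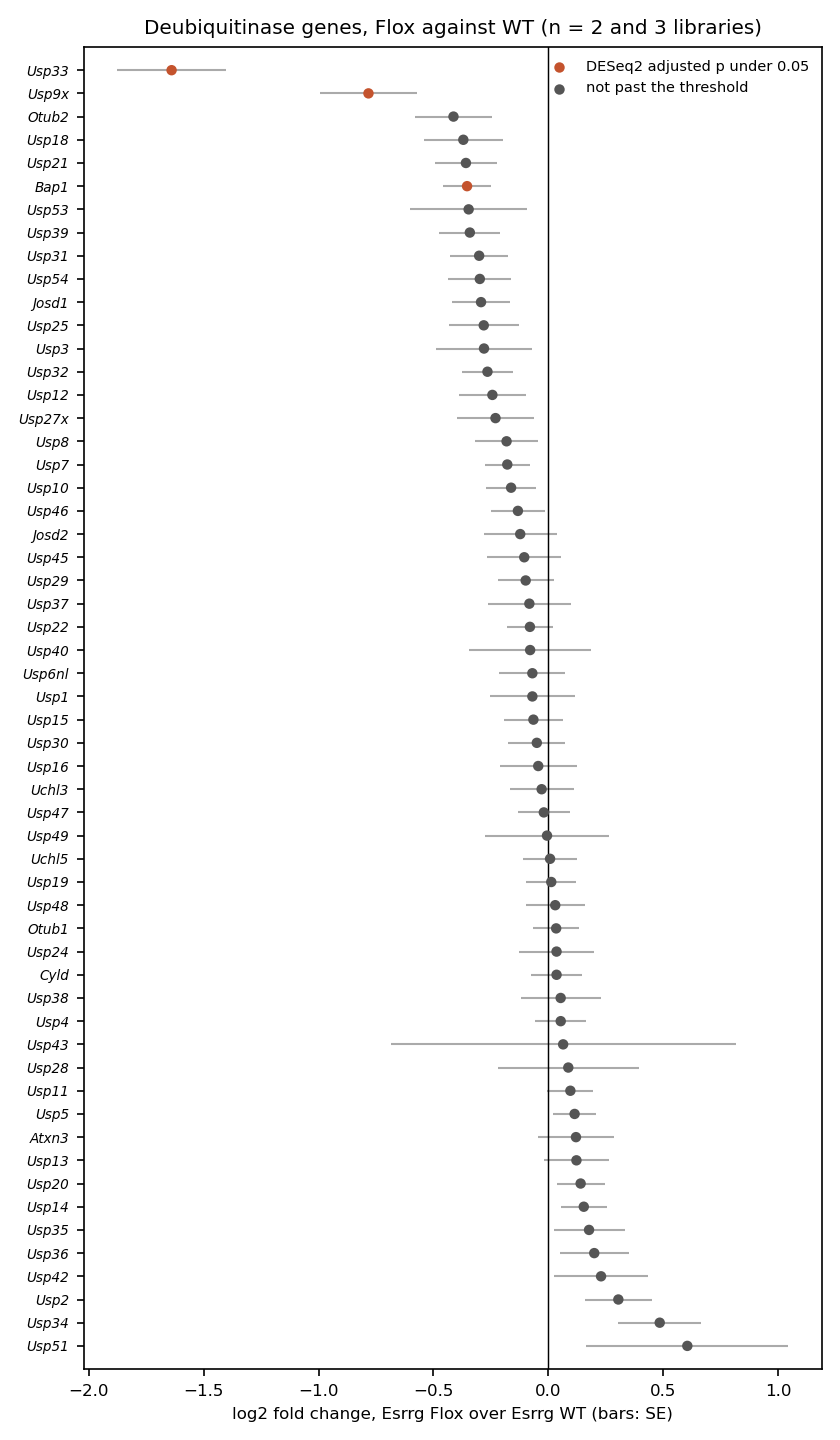
Log2 fold change (x axis, Flox over WT, bars SE from DESeq2, 3 WT and 2 Flox libraries) of the 56 tested members in order. Orange points passed an adjusted p under 0.05, and *Usp33* at -1.64 and *Usp9x* at -0.78 lie apart from the rest, which run from -0.41 to 0.60. The fall of *Usp33* had chosen the group, so its colour is no test of it.

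*Usp33* (ENSMUSG00000025437.16, chromosome 3) and *Usp20* (ENSMUSG00000026854.17, chromosome 2) are close paralogs. Their proteins bind the von Hippel-Lindau protein and remove ubiquitin from the β2-adrenergic receptor, and USP33 also acts on the axon guidance receptor ROBO1 and the centriole protein CP110. *Usp33* had 323, 299.6 and 433 normalized counts in WT replicates 2, 3 and 4 and 133 and 93.4 in Flox replicates 2 and 4. The highest Flox library held less than any WT library by a wide gap, and WT replicate 4 was the highest of all. The means were 352 ± 71.3 over the WT libraries (n = 3) against 113 ± 27.7 over the Flox libraries (n = 2, each ± SD). The log2 fold change was -1.64 (SE 0.24), and the mean decreased by 67.9%. In order of log2 fold change from the largest fall, *Usp33* took place 9 of 15724 genes, and place 2 of the 12846 genes with a mean of at least 50 normalized counts.

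For the paralog *Usp20* the direction was the opposite. It had 1839.5, 1831 and 1719.8 normalized counts in WT and 1956 and 2005 in Flox, with both Flox libraries above WT (log2 fold change 0.14, SE 0.10, adjusted p = 0.505). *Usp33* reads made up 15.0%, 14.1% and 20.1% of the raw reads of both genes in WT replicates 2, 3 and 4. In Flox replicates 2 and 4 the share was 6.35% and 4.45%, below WT in both libraries. The fall of *Usp33* had chosen the group, so this share restates that fall and is given as a description. The exons of *Usp33* share 2362 bases, 24.4% of their length, with 3 uncharacterized genes on the other strand (*Gm42967*, *Gm43859* and *Gm43857*). The libraries were not strand-specific, so reads there may have gone uncounted. The 3 genes themselves held between 0 and 6 counts per library. Of the 8 listed substrates of USP33 and USP20, 0 passed the test (DESeq2 and edgeR, also 0 at an unadjusted p under 0.05). For example, *Robo1* had 485, 542 and 536 normalized counts in WT and 495 and 491 in Flox. *Ccp110*, the gene of CP110, had 759, 831 and 896 in WT and 739 and 630.3 in Flox (log2 fold change -0.28, adjusted p = 0.253).

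**Figure D3:**
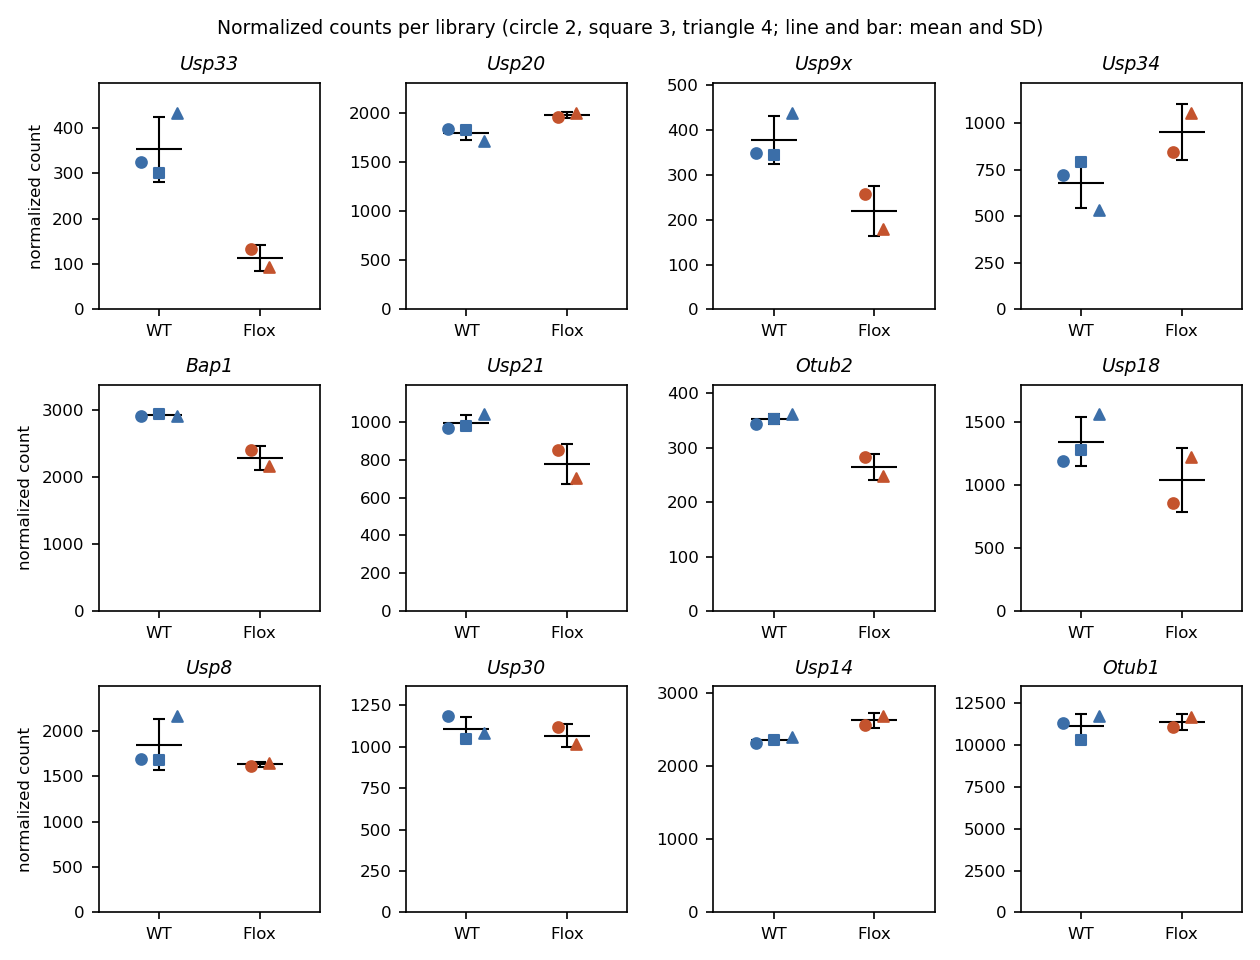
Normalized counts (y axis, each from 0) of 12 members in each library of Esrrg WT (blue) and Esrrg Flox (orange), with circles for replicate 2, squares for replicate 3 and triangles for replicate 4, and lines and bars for mean and SD (n = 3 and 2). *Usp33* and *Usp9x* are lower in both Flox libraries, *Usp34* and *Usp14* are higher in both, and *Otub1* and *Usp30* overlap.

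*Usp9x* (ENSMUSG00000031010.18, chromosome X) encodes a very large protease that acts on many substrates, α-synuclein among them. It had 349, 343 and 439 normalized counts in WT and 258 and 179.9 in Flox. Both Flox libraries were below all WT libraries, replicate 4 by more than replicate 2. The means were 377 ± 53.8 over the WT libraries (n = 3) against 219 ± 55.5 over the Flox libraries (n = 2, each ± SD), and the mean decreased by 41.9% (log2 fold change -0.78, SE 0.21, adjusted p = 0.0061). The call was not made by edgeR (adjusted p = 0.0595). Leaving out WT replicate 4, the library with the highest value, raised the adjusted p to 0.0520, and leaving out Flox replicate 4 raised it to 0.506.

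*Usp34* and *Usp24* are the other very large members. *Usp34*, whose protein stabilizes axin in Wnt signalling, had 719.6, 791 and 531 normalized counts in WT and 847 and 1057 in Flox, with both Flox libraries higher (log2 fold change 0.48, SE 0.18, adjusted p = 0.073). *Usp24* had 496, 459.6 and 393 in WT and 433 and 488 in Flox, and the groups overlapped. Of the raw reads of these 3 genes, *Usp9x* took 22.3%, 21.5% and 32.2% in WT and 16.8% and 10.4% in Flox. *Usp34* took 46.0%, 49.6% and 39.0% in WT and 55.1% and 61.3% in Flox. WT replicate 4 had the highest *Usp9x* and the lowest *Usp34* share of the WT libraries. *Usp34* shares 2137 exon bases with *Ahsa2* on the other strand.

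*Bap1* (ENSMUSG00000021901.11, chromosome 14) was called besides *Usp9x*. It had 2907, 2940.0 and 2914 normalized counts in WT and 2408 and 2162 in Flox. The WT libraries were nearly equal and both Flox libraries were lower. The means were 2920.2 ± 17.5 over the WT libraries (n = 3) against 2285 ± 174 over the Flox libraries (n = 2, each ± SD), and the mean decreased by 21.7% (log2 fold change -0.35, SE 0.10, adjusted p = 0.0148). edgeR did not call it (adjusted p = 0.0681), and the DESeq2 call was lost without WT replicate 2 (0.185), WT replicate 3 (0.139) or Flox replicate 4 (0.571).

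ERRγ is a transcription factor that binds the letters TCAAGGTCA, so the starts of the members were searched for them. RefSeq promoter windows (GRCm38.p6, 250 bases before to 50 after a gene start) were at hand for 51 of the 64 members, as 54 windows. The 13 members without a window included *Usp33* and *Usp9x*. No member window held TCAAGGTCA on either strand, beside 0.423% of all 32851 windows. None held the core AAGGTCA, which lies within the longer motif, beside 4.72% of all windows. This says only that these letters are not in these windows. The member windows were rich in CG dinucleotides, with a median of 19 in the 250 bases before the start, beside 6 over all windows. All windows were not limited to expressed genes, and expressed genes alone were not compared, so this is not read as a trait of the group. The 250 bases before the start of *Bap1*, the called member with a window, and of *Usp20*, the paralog of *Usp33*, are shown with each CG in capitals.
Bap1 (chr14:31251239-31251488, plus strand): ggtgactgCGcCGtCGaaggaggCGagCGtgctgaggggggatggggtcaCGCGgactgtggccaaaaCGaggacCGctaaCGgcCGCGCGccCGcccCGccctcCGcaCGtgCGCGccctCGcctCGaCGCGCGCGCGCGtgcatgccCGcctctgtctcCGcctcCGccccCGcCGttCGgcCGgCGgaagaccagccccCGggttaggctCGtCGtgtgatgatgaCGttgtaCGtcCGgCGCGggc
Usp20 (chr2:30982029-30982278, plus strand): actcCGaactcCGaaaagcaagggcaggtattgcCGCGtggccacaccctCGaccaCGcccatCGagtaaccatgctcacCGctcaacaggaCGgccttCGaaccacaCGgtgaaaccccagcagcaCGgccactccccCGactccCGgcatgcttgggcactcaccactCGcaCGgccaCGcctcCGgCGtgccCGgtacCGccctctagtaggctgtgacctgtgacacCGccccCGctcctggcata
The *Bap1* sequence has 43 CG dinucleotides and 74.4% G and C, and that of *Usp20* has 23 and 65.6%.

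*Bap1* belongs to the 9 members that act on histones and chromatin, of which 8 were tested. Of these, 1 passed the test, 7 had a negative log2 fold change, and the median was -0.16. *Usp21*, which removes ubiquitin from histone H2A, had 967, 979 and 1042 normalized counts in WT and 851 and 703 in Flox, with both Flox libraries lower (log2 fold change -0.36, SE 0.13, adjusted p = 0.0751). *Usp22* had 5587, 5571 and 5358 in WT and 5498 and 4918 in Flox, where the groups overlapped. Its relative *Usp27x* had 523, 573 and 465 in WT and 492 and 395 in Flox. *Usp51*, the third member of that trio, was low, with 24.2, 33.6 and 25.9 in WT and 44.2 and 40.8 in Flox (log2 fold change 0.60, SE 0.44, adjusted p = 0.489). *Usp3*, *Usp16* and *Usp49* had log2 fold changes of -0.28, -0.04 and -0.01. *Usp49* shares 4392 exon bases, 51.2% of its exons, with *Gm20517* on the same strand, so its count is uncertain.

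The remaining members of the OTU, UCH and Josephin families gave no call, so *Bap1* was the 1 gene of these 8 that passed. *Otub2* had 345, 354 and 362 normalized counts in WT and 282 and 249 in Flox. Both Flox values were below all WT values (log2 fold change -0.41, SE 0.17, adjusted p = 0.112). *Otub1*, which took 13.7% to 16.2% of all member counts per library, had 11295, 10271 and 11758 in WT and 11053 and 11694 in Flox (log2 fold change 0.03). *Josd1* had 1150.5, 1168 and 1244 in WT and 1053 and 886 in Flox (log2 fold change -0.29, adjusted p = 0.151). *Josd2* and *Atxn3*, the gene of ataxin-3 that carries the repeat of Machado-Joseph disease, had log2 fold changes of -0.12 and 0.12, and the groups overlapped in each. *Uchl3* and *Uchl5* stood at -0.03 and 0.01.

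The list of endosome, receptor recycling and secretory genes holds *Usp33* and 4 other members, of which 0 were called (DESeq2 and edgeR, 1 at an unadjusted p under 0.05). *Usp8*, which sorts receptors at endosomes, had 1693, 1679 and 2167 normalized counts in WT and 1611 and 1645 in Flox. WT replicate 4 stood above the other WT libraries, and the Flox libraries were just below the lowest WT value (log2 fold change -0.18, adjusted p = 0.516). *Usp32* had 1776, 1839 and 1709 in WT and 1551 and 1403 in Flox, without overlap (log2 fold change -0.26, SE 0.11, adjusted p = 0.131). *Usp19*, an enzyme of the endoplasmic reticulum, had 1359, 1400.2 and 1338 in WT and 1365 and 1391 in Flox.

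The members that act on mitochondria gave 0 calls among 4 genes (DESeq2 and edgeR, also 0 at an unadjusted p under 0.05), with a median log2 fold change of -0.06. *Usp8*, given above with the endosome genes (log2 fold change -0.18), also stands in this list. *Usp30* sits on the mitochondrial outer membrane and counteracts Parkin. It had 1187, 1046 and 1081 normalized counts in WT and 1115 and 1018 in Flox, and the groups overlapped (log2 fold change -0.05, SE 0.12, adjusted p = 0.893). *Usp15*, which also opposes Parkin, had 993, 1135 and 1021 in WT and 953 and 1055 in Flox. *Usp35* had 431, 466 and 396 in WT and 461 and 513 in Flox (log2 fold change 0.18, SE 0.15).

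The 4 members that work at the proteasome or on free chains all had positive log2 fold changes, beside 7713 of the 15724 genes tested. Their median was 0.12, and 0 passed the test (DESeq2 and edgeR, also 0 at an unadjusted p under 0.05). For *Uchl5* the value was only 0.01 (SE 0.12), and the groups overlapped. *Usp14*, which trims chains on the proteasome, had 2323, 2361 and 2400.0 normalized counts in WT and 2560.1 and 2696 in Flox. Both Flox libraries were above WT (log2 fold change 0.15, SE 0.10, adjusted p = 0.41). *Usp14* shares 2169 exon bases with *Thoc1* on the other strand. *Usp5* had 5490.0, 5119 and 5139 in WT and 5587 and 5777 in Flox, also without overlap (log2 fold change 0.11, SE 0.10). Its relative *Usp13* had 635, 689 and 560.1 in WT and 685 and 682 in Flox, within the WT range.

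*Usp1*, *Usp12* and *Usp46* form a list because their enzymes need the protein WDR48 (UAF1) for full activity. All 3 had negative log2 fold changes (-0.07, -0.24 and -0.13), and 0 passed the test (DESeq2 and edgeR, also 0 at an unadjusted p under 0.05). Their partner *Wdr48* fell. It had 406, 395 and 454 normalized counts in WT and 294 and 231 in Flox, without overlap (log2 fold change -0.67, SE 0.18, adjusted p = 0.00536 with DESeq2 and 0.0518 with edgeR). *Wdr20*, which boosts USP12 and USP46 further, had 317, 359.7 and 379 in WT and 344 and 352 in Flox. Of the 12 listed partners of members, *Wdr48* was the 1 that was called with DESeq2, beside 4.05% of all genes lower.

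Among 8 members linked to p53 and DNA repair, 0 passed the test (DESeq2 and edgeR, also 0 at an unadjusted p under 0.05) and the median log2 fold change was -0.04. *Usp7*, which stabilizes MDM2 and p53, had 3215, 3091 and 3268 normalized counts in WT and 2891 and 2749 in Flox, with Flox just below WT (log2 fold change -0.18, SE 0.10). *Usp10* had 1834, 1724 and 1741 in WT and 1627 and 1529.9 in Flox (log2 fold change -0.16). *Usp11* had 2867, 2840.1 and 3087 in WT and 3165 and 3101 in Flox (log2 fold change 0.10). Its paralogs *Usp4* and *Usp15* stood at 0.05 and -0.06, and 0 of these 3 paralogs passed (DESeq2 and edgeR, also 0 at an unadjusted p under 0.05). The other members of the p53 list, *Usp1* (which also stands in the WDR48 list), *Usp28*, *Usp45*, *Usp47* and *Usp48*, ranged from -0.10 to 0.09.

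The list of NF-κB and interferon signalling genes (*Cyld*, *Otub1*, *Usp18* and *Usp25*) held 0 calls (DESeq2 and edgeR, 1 at an unadjusted p under 0.05). *Usp18* had 1192, 1275 and 1563 normalized counts in WT and 859.8 and 1219.8 in Flox. Flox replicate 2 was below all other libraries, while Flox replicate 4 lay within the WT range (log2 fold change -0.37, SE 0.17, adjusted p = 0.184). *Usp18* is itself induced by interferon. The 14 other interferon-stimulated genes summed to 21688, 22599.6 and 24929 in WT and 15915 and 28251 in Flox, so Flox replicate 2 was lowest and Flox replicate 4 highest. Of these, *Ifit2* fell, with 2641, 2369 and 2072 in WT and 1315 and 1759 in Flox (log2 fold change -0.62, adjusted p = 0.00237 with DESeq2 and 0.0607 with edgeR). The part of the interferon response in the *Usp18* values was not tested. *Cyld*, which cuts Lys63-linked and linear chains, had 2179.8, 2478 and 2223 in WT and 2414 and 2288 in Flox, and the groups overlapped. *Usp25* had 573, 542 and 478 in WT and 452 and 422 in Flox (log2 fold change -0.28).

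A further list held *Usp39* and *Usp6nl*, which have no known ubiquitin protease activity, and *Usp53* and *Usp54*, which were long annotated as inactive. They had 4 negative log2 fold changes with a median of -0.32. None passed the adjusted threshold (0 with DESeq2 and edgeR, 2 at an unadjusted p under 0.05). *Usp39*, a splicing factor, had 861, 861 and 1001 normalized counts in WT and 728 and 705 in Flox, without overlap (log2 fold change -0.34, SE 0.13, adjusted p = 0.0924). *Usp54* had 807, 902 and 959 in WT and 765 and 682 in Flox (log2 fold change -0.30, SE 0.14, adjusted p = 0.179). *Usp53* was low, with 151, 141 and 205 in WT and 118 and 142 in Flox, and the groups overlapped. *Usp6nl* had a log2 fold change of -0.07.

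At the upper end, 5 members with a mean of at least 50 normalized counts had the highest log2 fold changes, and none of them was called. These were *Usp34* (0.48), *Usp2* (0.30), *Usp42* (0.23), *Usp36* (0.20) and *Usp35* (0.18). *Usp2*, a protease of the circadian clock, had 701, 660.3 and 689 normalized counts in WT and 739 and 949 in Flox. Both Flox libraries were above WT, replicate 4 by far more than replicate 2 (SE 0.15, adjusted p = 0.21). *Usp36*, a nucleolar enzyme, had 971, 935 and 729 in WT and 981 and 1037 in Flox, without overlap, and WT replicate 4 was the lowest. *Usp42* had 321, 279 and 210.4 in WT and 315 and 318 in Flox, so the groups overlapped.

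The Flox libraries did not move by equal amounts. Against the WT mean, 26 of the 56 members were lower in both Flox libraries, 13 were higher in both, and 17 lay on opposite sides. In Flox replicate 4, 42 members stood farther from the WT mean than in Flox replicate 2. *Usp33* was at -1.41 in Flox replicate 2 and at -1.91 in Flox replicate 4 (log2 of the library over the WT mean). For *Usp9x* the same values were -0.55 and -1.07. *Usp18* went the other way, with -0.64 and -0.14. Flox replicate 4 was also the library with the most microglial and endothelial marker counts, 11162 and 792. The part of these cells in the members' values was not tested. With Flox replicate 2 as the single Flox library the log2 fold change of *Usp33* was -1.41, and with replicate 4 alone -1.91.

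**Figure D4:**
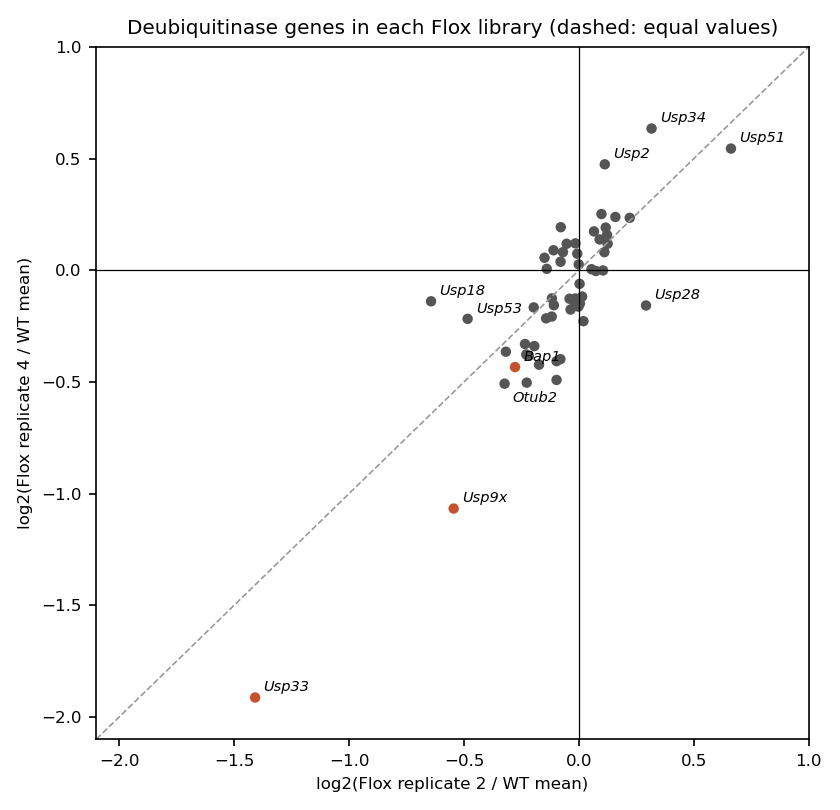
Log2 ratio of each tested member to the WT mean in Flox replicate 2 (x axis) and Flox replicate 4 (y axis), with orange for members at an adjusted p under 0.05 and a dashed line for equal values. *Usp33* and *Usp9x* are low in both libraries and lower in replicate 4, and 17 of 56 members lie on opposite sides of the WT mean. The fall of *Usp33* had chosen the group, so its colour is no test of it.

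Of the 26 other deubiquitinases outside this group, 25 were tested, 2 fell and 1 rose with DESeq2, and edgeR called 0. As a background for each list here, DESeq2 called 4.05% of all genes lower and 4.2% higher. For edgeR these shares were 0.535% and 0.884%, and nothing is read from such small counts. *Otud7a* had 645, 664 and 689.8 normalized counts in WT and 517 and 377 in Flox (log2 fold change -0.58, adjusted p = 0.0112). *Brcc3*, a protease of Lys63-linked chains in the BRCA1-A complex, had a log2 fold change of -0.55 (adjusted p = 0.0144). *Otud1* rose (log2 fold change 0.64, adjusted p = 0.0314). Among 6 E1 enzymes 0 passed (DESeq2 and edgeR, 2 at an unadjusted p under 0.05). Of 33 E2 enzymes, 31 were tested, 2 fell and 1 rose with DESeq2, and edgeR called 0. *Ube2j1*, an E2 of the endoplasmic reticulum, fell (log2 fold change -0.41, adjusted p = 0.00868). *Ube2r2* rose (log2 fold change 0.33, adjusted p = 0.0154). *Rps27a*, which encodes ubiquitin joined to a ribosomal protein, rose from 9555, 10099.9 and 9528 normalized counts in WT to 13728 and 14438 in Flox (log2 fold change 0.53, adjusted p = 3e-06). *Rps27a* has near-identical copies in the genome, so its count is uncertain. Without WT replicate 2 or without Flox replicate 4, 0 of the other deubiquitinases and 0 of the E1 and E2 enzymes passed in either direction (DESeq2). Without WT replicate 3 the other deubiquitinases also gave 0 calls, and without Flox replicate 2 the E1 and E2 enzymes gave 4 lower and 2 higher. The 7 listed *Senp* genes, which encode proteases of ubiquitin-like modifiers, all had negative values, beside 50.9% of all genes. Their median log2 fold change was -0.15, and 0 passed (DESeq2 and edgeR, 2 at an unadjusted p under 0.05).

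**Figure D5:**
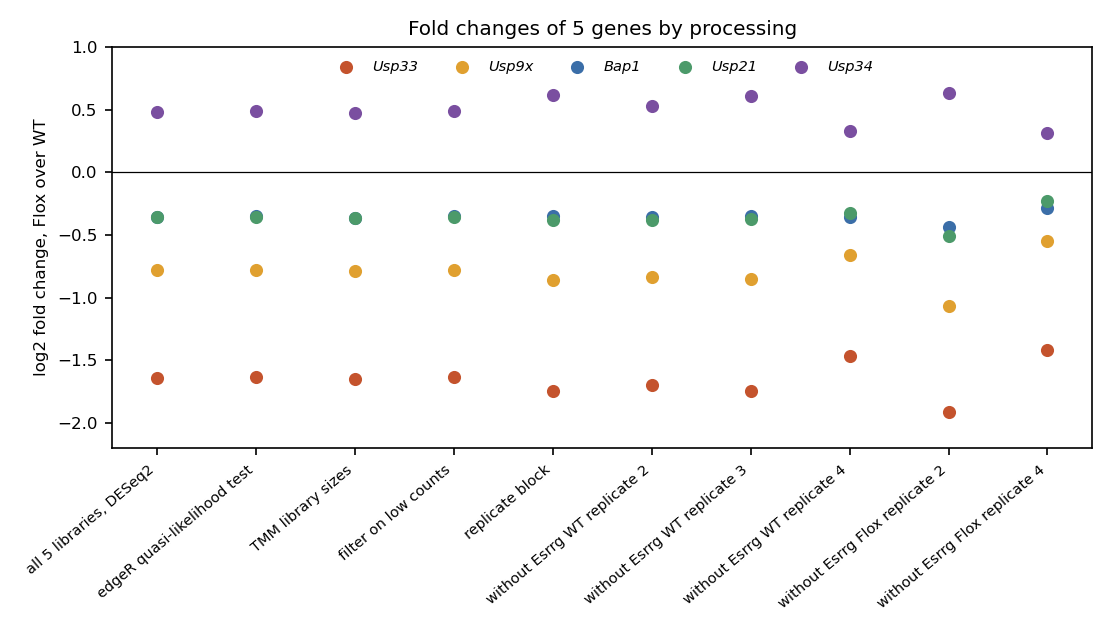
Log2 fold change (y axis, Flox over WT) of *Usp33*, *Usp9x*, *Bap1*, *Usp21* and *Usp34* under each way of processing (x axis). *Usp33* stayed between -1.91 and -1.41, and no gene shown changed sign.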

How the data were processed

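The authors deposited raw read counts per gene from HTSeq for 5 BAC-TRAP libraries of poly(A) RNA, together with 5 summary lines for unassigned reads, which stayed out of every total and test (no gene 3.18% to 4.45%, ambiguous 5.62% to 5.78%, multiply aligned 3.60% to 4.23% of reads). The submitters' processing notes name Trim Galore 0.6.6, STAR 2.7.9a, HTSeq 0.11.3 and GRCm39, whereas the study's methods name an earlier build, so no gene coordinates are given. The windows before gene starts are RefSeq's, with the build printed. Symbols and exon lengths came from GENCODE release M21 by gene ID without version (52147 of 53700 IDs matched).

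Counts of the 29407 genes with a count were fitted with DESeq2 1.42.0 in R 4.3.3 (default size factors, two-sided Wald test, independent filtering at 0.05, Benjamini-Hochberg adjustment over all genes, 15724 with an adjusted p). The study's methods also used DESeq2, and edgeR 4.0.16 was an alternative. Raw counts over a library's size factor gave normalized counts, and fold changes are not shrunken. An exact permutation test of 3 against 2 libraries cannot go below p = 0.1. Floors cover counting error only, since reads carry no molecular identifiers.

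Members and lists were chosen with earlier results of these data known. Genes were named if they were *Usp33* or *Usp20*, were called, were among the 5 lowest or 5 highest fold changes with a mean of at least 50 normalized counts, were among the 8 highest levels per kb, or stood in a role list. Other pathway genes were named if called, and some are not reported here. Genes without overlap between groups, or shown as an example, a partner or a substrate, were named after their values were seen.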

Additional observations from a re-analysis of the deposited data

How the results depend on the processing

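Counts of calls and fold changes were recomputed under 9 alternatives, and counts of members without overlap under 7 (not with edgeR or the replicate block). No called gene reversed direction in these. Counts of members here include *Usp33*, whose fall had chosen the group, so nothing is read from its part in them. With edgeR's quasi-likelihood test the count of lower members went from 3 to 1, and that with a 1.5-fold change from 2 to 1. The other deubiquitinases gave 0 lower and 0 higher calls, and the E1 and E2 enzymes 0 and 0. With the replicate block, which treats libraries of the same number as a pair, the same counts were 1 and 1, 0 and 0, and 1 and 0, and *Usp33* had a log2 fold change of -1.75. The numbers are not stated to mark a shared batch, and deviations of same-numbered libraries correlated at 0.093 and 0.087 over 16711 genes. With 2 Flox libraries, the correlation of a WT library with 1 of them is by construction the reverse of that with the other. Leaving out 1 library at a time gave 1 to 4 lower and 0 to 1 higher members, and 1 to 2 and 0 to 1 with a 1.5-fold change. It gave 8 to 13 members above all WT libraries, 0 to 2 lower and 0 to 2 higher among the other deubiquitinases, and 0 to 4 lower and 0 to 2 higher among the E1 and E2 enzymes. Members below all WT libraries numbered 17 to 22, and with 1 library fewer such arrangements are easier to reach. The members' median log2 fold change ran from -0.127 to -0.0462, and *Usp33* from -1.91 to -1.41. TMM library sizes and a filter on low counts again called *Usp9x* and *Bap1*. A library left out removes 1 of few samples, and beyond that the cause was not tested. For *Usp9x* the block gave an adjusted p of 0.0874 and for *Bap1* 0.155. *Usp21* (0.0352) and *Usp34* (0.0406) were called without Flox replicate 2, and *Usp31* (0.0498) without WT replicate 4. Of 495 values of the other members, 38 changed sign, in 19 members, and none of these was among the 20 with a log2 fold change beyond 0.2. At this depth *Usp43* and *Usp51* had SEs of 0.75 and 0.44, so moderate changes of low genes were not detectable.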
